A study of Mus musculus with 2 samples.

Results

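Mir143 and Mir145a are a pair of microRNA hairpins, and they were taken by their GENCODE M21 symbols and Ensembl gene identifiers from tables that list 2202 hairpins. Both of the 2 members were found. The tables come from heart tissue of the mouse strain B6CASTF1/J, an F1 hybrid, with 1 library from each of 2 females at an age of 25 days. The labels name no treatment, altered gene or second group, so the design gives levels in a normal heart and their spread between 2 libraries, biological replicates 2 and 1. The animals are numbered separately in the labels although their donor identifier is shared, and every difference between the libraries holds for these libraries only.

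MicroRNAs are short RNAs, cut from a folded hairpin, that pair with messenger RNAs and lower their translation or stability. The mouse miR-143 and miR-145 hairpins are made from 1 primary transcript and are known for their enrichment in vascular smooth muscle cells and pericytes, the contractile cells around vessels. Serum response factor and its partner myocardin drive the cluster in smooth muscle, and miR-145 lowers regulators such as Klf4 that hold these cells in a growing state. The tables hold hairpins only, so the smooth muscle label could not be set against contractile protein genes. In bulk heart, fewer cells of a type and less RNA per cell cannot be told apart.

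The cluster lies on the minus strand of chromosome 18 in the mm10 assembly. Mir143 (ENSMUSG00000065445.3) spans 61649196 to 61649258 and is 63 bases long. Mir145a (ENSMUSG00000065592.2) follows it in the direction of transcription, from 61647825 to 61647894, and is 70 bases long. The hairpins are 1301 bases apart. GENCODE M21 places Carmn, the long noncoding host gene of the cluster known from smooth muscle, on the same strand from 61649625 to 61665537, ending 366 bases before Mir143. RefSeq on GRCm38.p6 gives Carmn the longer span of 61645878 to 61665538, which holds both hairpins. On the opposite strand, Bvht, a long noncoding RNA of cardiovascular development in the mouse, ends 352 bases from Mir145a. No other GENCODE gene overlaps the stretch from one hairpin to the other.

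The libraries held 2661090 hairpin counts in replicate 2 and 2050498 in replicate 1, which were 41.2% and 41.0% of their reads. Of the reads, 41.6% in replicate 2 and 38.5% in replicate 1 matched several places and stand in a row that names no hairpin. Of a cardiac muscle list of 7 hairpins, Mir208a and Mir499, microRNAs within cardiac myosin genes, were the best counted. In the same list, Mir208b had 297 counts in replicate 2 and 391 in replicate 1, and Mir1a-2 had 31 and 94. Mir1a-1, Mir133a-1 and Mir133a-2 had at most 8, and reads shared between loci of Mir1a or of Mir133a may be missing. Mir208a had 15598 counts in replicate 2 against 3322 in replicate 1, and Mir499 had 6167 against 5391. Mir126a, the endothelial microRNA, had 162194 counts in replicate 2 and 221621 in replicate 1. Values in CPM (counts per 1e6) are counts over all hairpin counts of a library, with SD over n = 2 libraries.

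By counted reads, Mir143 was among the most abundant hairpins in both libraries. It had 113109 counts in replicate 2 and 57656 counts in replicate 1. These were 42505 CPM in replicate 2 (exact 95% binomial interval 42263 to 42748) and 28118 CPM in replicate 1 (27892 to 28345), a mean of 35311 ± 10173 CPM. Mir143 ranked 9th of all hairpins in replicate 2 and 10th in replicate 1. Reads that matched several places enter no hairpin row, so these ranks hold for counted reads only. Over all reads, Mir143 held 1.75% in replicate 2 and 1.15% in replicate 1. The intervals of the libraries do not overlap, and they cover the counting error of independent reads only, because PCR copies were not told apart.

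Mir145a was lower than Mir143 in both libraries and varied more. It had 15387 counts in replicate 2 and 2534 counts in replicate 1. Its level was 5782 CPM in replicate 2 (5691 to 5874) and 1236 CPM in replicate 1 (1188 to 1285), a mean of 3509 ± 3215 CPM. By counted reads, Mir145a ranked 25th in replicate 2 and 61st in replicate 1. Its SD was nearly as large as its mean, whereas Mir143 kept a rank close to 10 in both libraries.

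Together the hairpins supplied 4.83% of hairpin counts in replicate 2 and 2.94% in replicate 1. Mir143 alone supplied 4.25% and 2.81%, and Mir145a 0.578% and 0.124%, in the same order of libraries. All counts of both hairpins lay on their own strand, with 0 counts on the opposite strand in each library. Mir145b, a hairpin with a related name elsewhere on the chromosome, had 3 counts in replicate 2 and 0 in replicate 1, where a floor of 3 counts equals 1.46 CPM and the exact 95% binomial interval reaches 1.80 CPM.

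**Figure D1:**
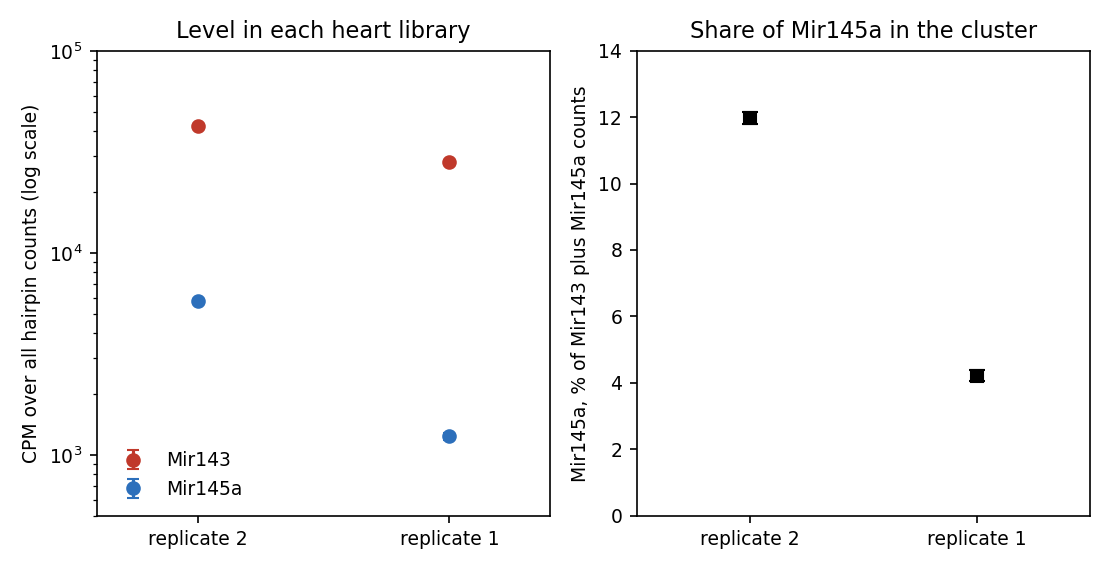
The left panel plots CPM on a log axis for Mir143 (red) and Mir145a (blue) in replicate 2 and replicate 1, and the right panel the percent of cluster counts that came from Mir145a; bars are exact 95% binomial intervals, mostly hidden by the points. Mir143 stands at 42505 and 28118 CPM, Mir145a at 5782 and 1236 CPM, and the share of Mir145a at 12.0% and 4.21%.

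Neighbours of Mir143 by mean level were mostly broadly expressed microRNAs. Above it stood Mirlet7b with 51103 ± 2693 CPM, Mir99a with 39855 ± 18094 CPM and Mir139 with 37155 ± 5357 CPM. Below it stood Mir26b with 26099 ± 3336 CPM, Mir22 with 25685 ± 20872 CPM and Mir99b with 20451 ± 803 CPM. The difference between Mir143 and each of Mir99a, Mir139, Mir26b and Mir22 was smaller than the larger of their SDs, so its place among these is not settled by 2 libraries.

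Mir145a sat among hairpins of which several differed widely between the libraries. Mir744 (3979 ± 460 CPM), Mir195a (3886 ± 4282 CPM) and the cardiac muscle hairpin Mir208a (3741 ± 2999 CPM) stood just above it. Mir351 (3340 ± 2335 CPM), Mir15b (3037 ± 2272 CPM) and Mir674 (2916 ± 186 CPM) stood just below. None of these means differed from that of Mir145a by more than its SD of 3215 CPM.

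The comparison of replicate 2 with replicate 1 asked how much each member differed between these 2 libraries. With 1 library from each animal, differences between animals and between library preparations cannot be told apart. Both members were higher in replicate 2. After TMM scaling, Mir143 had 46033 scaled CPM in replicate 2 and 25963 in replicate 1, a log2 ratio of 0.83 (counting interval 0.81 to 0.84). Mir145a had 6262 scaled CPM in replicate 2 and 1141 in replicate 1, a log2 ratio of 2.46 (counting interval 2.40 to 2.52). The exact binomial test over 326 hairpins, with Benjamini-Hochberg adjustment, called both of the 2 members, each with an adjusted p = 0 at double precision. The same test called 204 of the 326 hairpins, or 62.6%, so a call by itself does not set the members apart. Of all tested hairpins, 36.2% were called higher in replicate 2 (118 higher and 86 lower, or 76 and 117 with scaling by total count).

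The size of the ratio separated the members. Among 165 hairpins with at least 100 counts in both libraries, log2 ratios had a median of 0.10 and an SD of 0.84, with quartiles of -0.45 and 0.44. Mir145a had the highest ratio of these 165. It also ranked 1st under each of the 9 alternatives, but these hardly test that rank. Other scalings, minimum counts and pseudocounts shift all of these ratios nearly alike. The remaining alternatives mostly left hairpins out, with 145 to 155 remaining. Over all 326 tested hairpins, which include those with few counts in 1 library, the ratio of Mir145a ranked 7th. Mir143 ranked 20th of the 165, above the upper quartile and within 1 SD of the median. The common dispersion of edgeR gave a biological coefficient of variation of 0.467, which equals a spread of 0.95 for a log2 ratio of 2 libraries. That spread is 1 SD, estimated from the same 2 libraries. The ratio of Mir143 lay within it and the ratio of Mir145a was beyond it, as were those of many other hairpins. By absolute log2 ratio, Mir145a ranked 13th of the 326, and Mir34a, just beyond the spread at -0.96, ranked 94th.

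**Figure D2:**
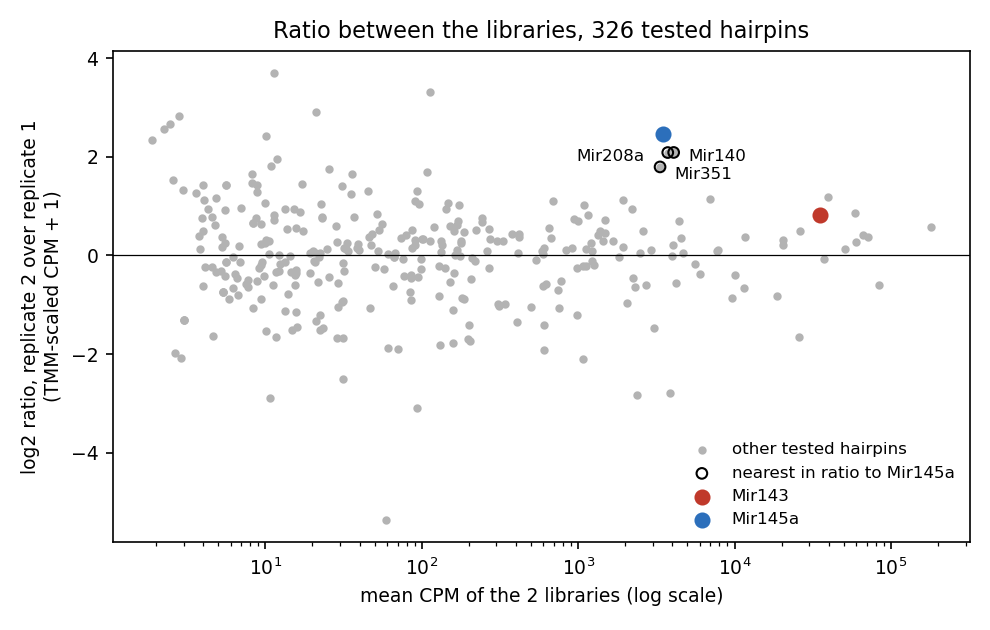
Each point is 1 of the 326 tested hairpins, with mean CPM on a log x axis and the log2 ratio of replicate 2 over replicate 1 on the y axis; Mir143 is red, Mir145a blue, and open circles mark the hairpins nearest in ratio to Mir145a. Mir145a lies at 2.46, just above Mir140 (2.09), Mir208a (2.08) and Mir351 (1.79), which have similar mean levels, and Mir143 lies at 0.83.

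With 2 libraries, the pattern of a hairpin is 1 ratio, and likeness is the distance between log2 ratios among the same 165 hairpins. The ratios nearest to that of Mir145a were those of Mir140, a microRNA known from cartilage (2.09), Mir208a (2.08) and Mir351 (1.79). Mir140 had 17023 counts in replicate 2 and 3621 in replicate 1, and Mir351 had 13281 and 3462. The ratios nearest to that of Mir143 were those of Mir107 (0.83), Mir23a (0.86) and Mir142, a microRNA of blood cells (0.76). Mir143 and Mir145a were therefore not among each other's nearest hairpins.

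Within the cluster, Mir143 held most counts in both libraries, and the balance differed between them. There were 7.35 counts of Mir143 for each count of Mir145a in replicate 2 (exact interval 7.23 to 7.48), against 22.8 in replicate 1 (21.9 to 23.7), with a mean of 15.1 ± 10.9. Mir145a made up 12.0% of the cluster counts in replicate 2 (11.8 to 12.2) and 4.21% in replicate 1 (4.05 to 4.37). Per base of annotated hairpin, Mir143 had 1795 counts and Mir145a 220 in replicate 2, against 915 and 36.2 in replicate 1. The ratio per base was 8.17 in replicate 2 and 25.3 in replicate 1. The order of the members was thus the same in both libraries, per hairpin and per base.

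This ratio is free of library scaling, since both counts come from 1 library. The odds of a cluster count being Mir145a were 3.10 times as high in replicate 2 as in replicate 1 (95% interval 2.96 to 3.23), a log2 odds ratio of 1.63. Fisher's exact test, two-sided and adjusted over 88 pairs of neighbouring hairpins, gave an adjusted p = 0 at double precision for the pair. That test called 46 of the 88 pairs, or 52.3%, so a balance that differed beyond counting error was common. Among better counted hairpins, with at least 100 counts in both libraries, it called 41 of 48 pairs. The call by itself therefore does not set the cluster apart. The 88 pairs were adjacent hairpins on 1 strand with starts within 10 kb and at least 10 counts in both libraries, and they share 128 hairpins.

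The cluster stood in the upper part of these pairs without leading them. Its absolute log2 odds ratio of 1.63 ranked 11th of 88, against a median of 0.66 and an upper quartile of 1.15. With at least 100 counts required it ranked 6th of 48. The pairs with the highest absolute values were Mir381 with Mir487b (2.69), Mir300 with Mir381 (-2.60), Mir200b with Mir429 (2.30), Mir99a with Mirlet7c-1 (-2.17) and Mir362 with Mir501 (2.11). In each pair the value is the odds of the hairpin that lies downstream, in replicate 2 over replicate 1. Of these, Mir300 with Mir381 rests on few reads, 28 and 34 in replicate 2 against 14 and 103 in replicate 1, and so does Mir200b with Mir429, with 28 and 26 against 74 and 14.

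**Figure D3:**
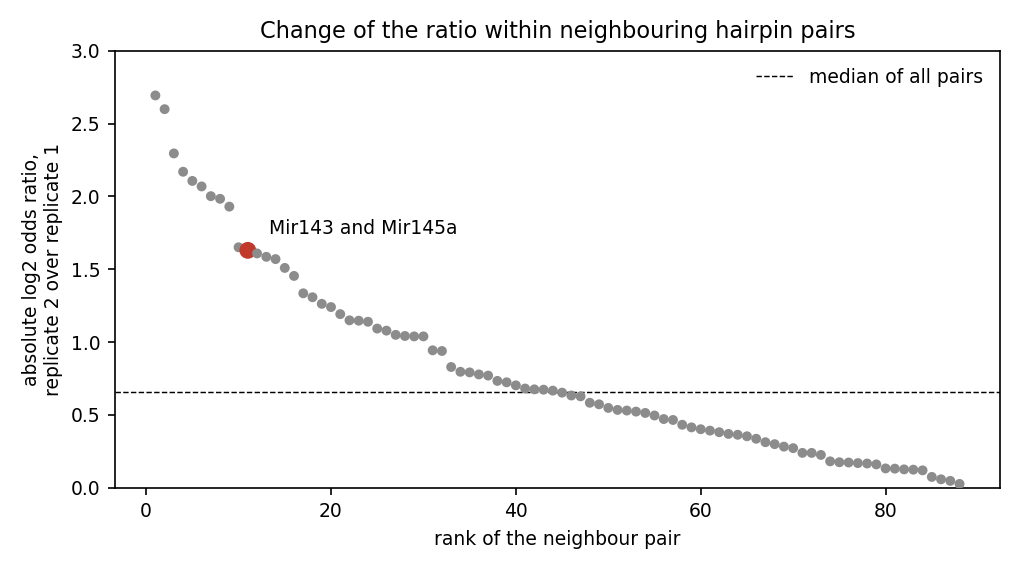
The absolute log2 odds ratio of replicate 2 over replicate 1 is plotted against rank for 88 pairs of neighbouring hairpins, with the Mir143 and Mir145a pair in red and the median of 0.66 as a dashed line. The pair stands 11th at 1.63, and 30 of the 88 pairs changed their odds more than 2-fold.

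Markers of other heart cell types moved between the libraries as well, and their part in the ratios of the members was not tested. The endothelial list, Mir126a with Mir126b at 0 and 1 counts, held 6.10% of hairpin counts in replicate 2 and 10.8% in replicate 1. There were 0.697 counts of Mir143 per count of Mir126a in replicate 2 and 0.260 in replicate 1. For Mir145a per Mir126a the values were 0.0949 and 0.0114. Of the fibroblast list, Mir214 fell to 1353 counts in replicate 2, against 8717 in replicate 1, Mir21a had 5064 and 4048, Mir199a-2 had 6 and 9, and Mir199a-1 had 0 in both. Its 4 hairpins held 0.241% of counts in replicate 2 and 0.623% in replicate 1.

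The cardiac muscle list of 7 hairpins held 0.831% of counts in replicate 2 and 0.449% in replicate 1, and Mir208a was called higher while Mir208b and Mir1a-2 were called lower. Counts of Mir145a per count of Mir208a were 0.986 in replicate 2 and 0.763 in replicate 1, which restates how near their ratios between the libraries were. Per count of Mir499, of the same list, counts of Mir145a were 2.50 in replicate 2 and 0.470 in replicate 1. Counts of Mir143 per count of Mir208a were 7.25 and 17.4. The leukocyte list held 0.612% and 0.607%, the erythroid list 0.0869% and 0.178%, and the epithelial list 0.0370% and 0.0404%. Mir1a and Mir133a have more than 1 locus, and reads that match several places enter no hairpin row, so the cardiac muscle share holds for counted reads only and was not ranked against the cluster.

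Other microRNAs that act on the state of smooth muscle cells were read from a fixed list. Those known to favour the contractile state showed no common direction. Of their 7 hairpins, 4 were tested, with 1 higher, 2 lower and 1 not called in replicate 2, and the median log2 ratio of the 4 was -0.87, against 0.09 for all tested hairpins. Over all 326 tested hairpins, 62.6% were called, 118 higher and 86 lower, so 3 calls among 4 hairpins are near that share. Mir22 was lower, with 29076 counts in replicate 2 and 82929 in replicate 1 (log2 ratio -1.66). Mir10a was higher with 3102 and 1717 counts (0.71), Mir18 had 180 and 172 counts (-0.08, adjusted exact binomial p = 0.709), and Mir1a-2 was lower with 31 and 94 counts (-1.67). Mir1a-1, Mir133a-1 and Mir133a-2 had at most 8 counts in either library. Reads shared between the loci of Mir1a or of Mir133a may be missing from these counts, so they and the direction of Mir1a-2 hold for counted reads only.

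MicroRNAs known to favour smooth muscle growth or the synthetic state were tested at all 10 of their hairpins. Of these, 7 were higher and 3 lower in replicate 2, with a median log2 ratio of 0.41, beside 36.2% called higher and 62.6% called in either direction over all tested hairpins. With scaling by total count, 5 were higher and 3 lower, and Mir21a turned to a ratio below 0. The median over all hairpins was then -0.14, a shift of that scaling which applies to the members too. Mir221 was higher with 3658 counts in replicate 2 and 1636 in replicate 1 (1.01). Mir130a had 7518 and 4841 counts (0.49), Mir21a 5064 and 4048 (0.18), and Mir146 was lower after scaling at 2881 and 2814 (-0.11). Mir222 had 166 and 83 counts (0.84) and Mir31 754 and 541 (0.33). Loci of 1 mature microRNA went apart, with Mir26a-1 higher and Mir26a-2 lower, and Mir24-1 higher and Mir24-2 lower, and reads shared by such loci may be missing from both. Of the tested hairpins in both lists, only Mir26a-1 (99 and 10 counts, 2.91) had a log2 ratio above the 2.46 of Mir145a. List hairpins with at least 100 counts in both libraries could not exceed it, because Mir145a was the highest of that set.

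**Figure D4:**
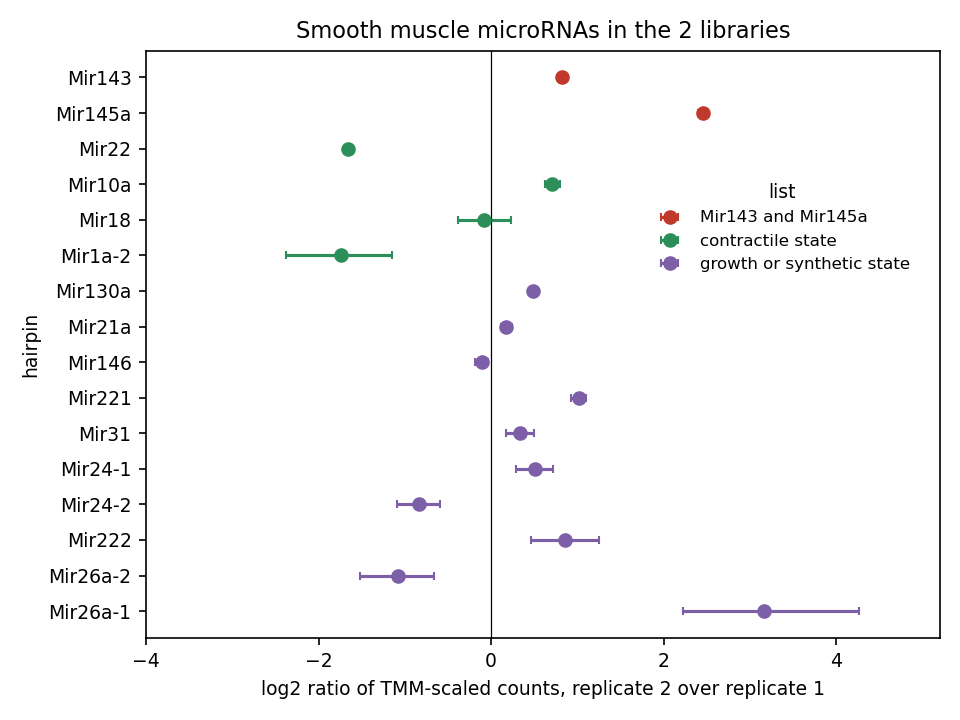
Log2 ratios of TMM-scaled counts, replicate 2 over replicate 1, are plotted for Mir143 and Mir145a (red), the 4 tested hairpins of the contractile list (green) and the 10 of the growth list (purple), with exact 95% counting intervals. Mir145a at 2.46 exceeds every hairpin but Mir26a-1, which had 99 and 10 counts, and the contractile list lies on both sides of 0.

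Mature microRNAs of these lists are shown to let their seeds, the stretch that pairs with targets, be compared. They come from a set of RefSeq mature sequences on GRCm38.p6, which held an entry for 14 of the 17 list hairpins. It held an entry for 0 of the 2 members, so no sequence is printed for Mir143 or Mir145a. The counts do not tell which arm of a hairpin was sequenced. Bases 2 to 8, the seed, are in capitals. The 8 sequences hold 7 different seeds, and miR-221 and miR-222 share theirs; both were higher in replicate 2.
miR-22-3p: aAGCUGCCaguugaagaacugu
miR-10a-5p: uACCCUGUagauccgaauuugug
miR-18a-5p: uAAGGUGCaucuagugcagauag
miR-130a-3p: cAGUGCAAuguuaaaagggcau
miR-21a-5p: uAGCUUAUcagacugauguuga
miR-146a-5p: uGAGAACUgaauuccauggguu
miR-221-3p: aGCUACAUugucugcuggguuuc
miR-222-3p: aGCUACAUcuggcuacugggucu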

How the data were processed

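The authors deposited raw read counts per annotated hairpin for each library, on the mm10 assembly with GENCODE M21, per the file headers of the accompanying notes. The aligner and the counter are not given in the sources used here. All 2202 identifiers matched GENCODE M21. The column for the strand of each hairpin was used, and rows that name no hairpin (58.8% of reads in replicate 2 and 59.0% in replicate 1) stayed out of totals.

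TMM factors came from edgeR 4.0.16 in R 4.3.3, over 326 hairpins with at least 10 counts in a library. Each hairpin was tested by an exact two-sided binomial test (scipy 1.17.1) against the ratio of effective library sizes, and neighbour pairs by Fisher's exact test, with Benjamini-Hochberg adjustment and a threshold of 0.05. Log2 ratios use a pseudocount of 1 CPM. With 1 library an animal and 1 group, these tests compare the 2 libraries, not conditions. Chi-square per degree of freedom was 776, so the libraries differed beyond counting noise and were not merged. The scripts were tested on simulated data.

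Members and lists were chosen with earlier results of these data known. Named hairpins were the 3 above and 3 below each member by mean level, the 3 nearest in ratio, the 5 neighbour pairs with the largest absolute log2 odds ratios, and the best counted of each list. Mir31, Mir222, Mir24 and Mir26a loci were named after their values were seen. Alternatives included DESeq2 1.42.0 size factors.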

Additional observations from a re-analysis of the deposited data

How the results depend on the processing

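Both members kept their direction and their call by the exact binomial test under all 9 alternatives of scaling, filter, pseudocount, strand and hairpin set. The pseudocount does not enter that test, so it could not change a call. Either-strand counts of both members equal their own-strand counts, so that alternative changed only the scaling and the other hairpins. The log2 ratio of Mir143 ranged from 0.60 (total count) to 0.83 and that of Mir145a from 2.23 (total count) to 2.46. At the counts of the members, shifts of this size could hardly change a direction or a call, so the alternatives hardly test either. The number of hairpins called was 165 to 204, but the number tested differed. With a minimum of 50 counts 165 of 223 were called, and with a minimum of 1 count 177 of 648. The alternatives for neighbour pairs called 37 of 74 pairs with either strand and 37 of 67 within 2 kb. They called 50 of 95 within 50 kb and 41 of 48 with at least 100 counts. These alternatives leave the counts of Mir143 and Mir145a as they are, so they do not test the log2 odds ratio of the cluster. By other denominators, the mean of Mir143 was 49887 CPM over counts of either strand and 14523 CPM over all reads. The either-strand total is the smaller one, with 1892750 against 2661090 own-strand counts for replicate 2, and 1440901 against 2050498 for replicate 1. It leaves out Mir378a, which has 0 either-strand counts, and nearly all of Mir126a, which has 13 and 25. The higher value thus comes from hairpins missing from that total, not from reads of the opposite strand. The mean of Mir145a was 11994 CPM over hairpin counts without the 10 highest; Mir143 is one of these 10 and has no such value. Leaving out a replicate gave 28118 to 42505 CPM for Mir143, 1236 to 5782 CPM for Mir145a and 7.35 to 22.8 for their ratio. Of the hairpins called, 57.8% were higher in replicate 2 with TMM (118 higher, 86 lower), 39.4% with total count (76 and 117), and 52.1% with DESeq2 size factors (99 and 91). Without the 10 highest other hairpins this share was 47.3% (87 and 97), with a minimum of 50 counts 44.8% (74 and 91). The ratio between libraries has no value without either replicate. No paired analysis was possible because there is 1 group. Every statement on spread is limited by n = 2; counting error is small for both members at this depth.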
